A study of Homo sapiens with 6 samples.

Results

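The long arm of human chromosome 19 ends in a cluster of zinc finger genes, and the 53 rows of the count table that lie there are described here, out of 22279 rows in all. A row was taken when its Ensembl transcript ID mapped by GENCODE release 29 to chromosome 19 at or after the start of ZNF582 and its symbol began with ZNF, ZSCAN, ZFP, ZBTB or ZIK. The region was chosen by the difference between RB knockdown and control libraries measured in these same data, so the members' fold changes and calls are given as a description and support nothing further. The series comprises 6 RNA-seq libraries of LNCaP, a human prostate cancer line that depends on androgen: 3 carry the knockdown label shRB, against the retinoblastoma protein RB, and 3 the control label shCON. Cells of both groups spent 72 h in CDT before harvest, a condition that arrests the cell cycle according to the labels and lacks hormone according to the series, and the comparison asks which RNAs change on loss of RB under it. Each group carries 1 hairpin label, so loss of RB and a property of that hairpin or cell population cannot be told apart. No label says that replicates were grown separately, so each p-value reflects only the scatter among these libraries, and that scatter may be technical.

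C2H2 zinc finger proteins read DNA through tandem fingers, each a short loop held by a zinc ion that contacts a few bases. Most of those encoded on chromosome 19 carry an N-terminal KRAB domain, which recruits the corepressor TRIM28 and through it the histone methyltransferase SETDB1 and HP1 proteins, and many of them bind and silence transposable elements. The family grew by tandem duplication, so neighbours are often close copies. SCAN and BTB domains, found in the ZSCAN and ZBTB proteins, join such proteins into dimers or larger assemblies. Of the 53 members, 50 are protein-coding and 3 are non-coding RNAs (ZNF582-AS1, ZNF667-AS1 and ZNF460-AS1). Of the coding members, 37 held the core string of the KRAB domain in the translated transcript, and 49 held 2 to 18 fingers (median 11). The transcript of the ZNF211 row held no finger string.

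Promoters of 49 of the 53 members were matched by symbol in RefSeq (GRCh38.p14), as 250 bases before to 50 bases after the gene start. The promoters of the boundary gene ZNF582 (chr19:56393485-56393784, minus strand), of ZNF264 (chr19:57191250-57191549, plus strand), which had the lowest fold change, and of ZNF135 (chr19:58058989-58059288, plus strand), which had the highest, are shown 5′ to 3′ because the first marks where the region begins and the other two bound the range of the members' values. Capitals mark CpG dinucleotides, the sites of DNA methylation.
ZNF582: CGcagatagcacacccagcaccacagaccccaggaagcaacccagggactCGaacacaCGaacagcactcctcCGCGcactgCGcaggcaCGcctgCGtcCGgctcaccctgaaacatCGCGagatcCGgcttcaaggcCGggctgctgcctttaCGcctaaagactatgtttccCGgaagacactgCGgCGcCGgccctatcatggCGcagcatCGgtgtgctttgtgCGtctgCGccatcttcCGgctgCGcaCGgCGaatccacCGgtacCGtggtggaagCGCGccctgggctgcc
ZNF264: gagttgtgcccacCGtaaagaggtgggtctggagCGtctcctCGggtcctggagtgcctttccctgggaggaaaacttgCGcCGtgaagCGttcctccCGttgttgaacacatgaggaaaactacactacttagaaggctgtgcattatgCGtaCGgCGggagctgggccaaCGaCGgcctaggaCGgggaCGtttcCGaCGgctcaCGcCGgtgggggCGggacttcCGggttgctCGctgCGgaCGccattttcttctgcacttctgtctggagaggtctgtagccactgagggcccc
ZNF135: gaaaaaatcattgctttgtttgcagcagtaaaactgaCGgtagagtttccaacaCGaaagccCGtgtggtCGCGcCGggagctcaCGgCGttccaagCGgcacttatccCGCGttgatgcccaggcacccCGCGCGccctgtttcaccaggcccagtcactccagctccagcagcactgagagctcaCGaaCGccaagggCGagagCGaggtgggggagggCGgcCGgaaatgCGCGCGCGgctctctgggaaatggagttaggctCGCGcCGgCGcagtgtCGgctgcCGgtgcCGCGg
These windows held 30, 23 and 32 CpG dinucleotides. The median over the 49 matched members was 23, against 20 for 156 other chromosome 19 zinc finger promoters and 14 for all 27305 promoters in the table. The 22 matched members called lower in shRB had a median of 22, and the 22 matched members tested and not called lower a median of 23.

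RB acts by holding E2F transcription factors, so the same windows were searched on both strands for the E2F strings TTTCCCGC, TTTCGCGC, TTTGCCGC and TTTGGCGC, which can overlap one another, so a promoter was counted once. A match was found in 2 of the 49 member promoters (4.08%), those of ZNF547 (chr19:57363301-57363600, plus strand) and ZSCAN22 (chr19:58326744-58327043, plus strand). Both are shown 5′ to 3′ with the matching string in capitals.
ZNF547: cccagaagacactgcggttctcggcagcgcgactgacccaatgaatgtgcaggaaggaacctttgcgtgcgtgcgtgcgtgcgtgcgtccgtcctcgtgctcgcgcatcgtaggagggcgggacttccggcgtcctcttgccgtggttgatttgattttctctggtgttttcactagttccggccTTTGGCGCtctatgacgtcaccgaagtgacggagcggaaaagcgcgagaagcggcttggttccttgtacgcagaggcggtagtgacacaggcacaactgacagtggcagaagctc
ZSCAN22: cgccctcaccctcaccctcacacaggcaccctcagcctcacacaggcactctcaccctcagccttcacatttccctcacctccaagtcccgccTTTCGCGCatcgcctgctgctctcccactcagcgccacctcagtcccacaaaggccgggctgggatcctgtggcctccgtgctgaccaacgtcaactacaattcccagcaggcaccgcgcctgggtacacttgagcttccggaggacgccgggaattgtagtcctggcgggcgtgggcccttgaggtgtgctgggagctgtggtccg
A match stood in 3.33% of all 27305 promoters and in 8.97% of the other chromosome 19 zinc finger promoters. None of the 22 matched members called lower held one, and 2 of the 22 not called lower did (9.09%). The log2 fold changes of ZNF547 and ZSCAN22 between shRB and shCON were 0.03 ± 0.15 and −0.16 ± 0.15 (SE), and neither passed the test. A string of this kind is not a measured binding site, and its absence says only that these letters are not in this window.

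Total counts ranged from 6115310 to 20091488 per library. RB1 mRNA, the target of the knockdown, read 56.6, 52.7 and 54.7 CPM (read counts scaled to library size) in shCON and 5.83, 3.82 and 5.41 CPM in shRB, so each library matched its label. The luminal prostate markers KLK3, KLK2, KRT8, KRT18, HOXB13 and FOLH1 were present at 35.3 CPM or more in each library. PTPRC, KRT5 and PECAM1, which mark leukocytes, basal cells and endothelium, were at 0, and TP63 had 1 count. The mesenchymal gene VIM fell from a mean of 25.3 ± 4.15 CPM to 8.48 ± 2.09 CPM in shRB (SD, n = 3 each), and the fibroblast gene COL1A1, which did not pass, had means of 17.5 and 13.5 CPM. Their part in the results below was not tested. Library shRB 2 stood apart on the second principal component, at −21.8 against 11.99 and 12.36 for the other shRB libraries. Deviations from each gene's group mean followed GC content most strongly in shRB 2 (Spearman's rho 0.69). The values were −0.51, 0.52 and −0.09 in shCON 1, 2 and 3, and −0.50 and −0.54 in shRB 1 and 3. Most libraries thus followed GC content to some degree. Results below are also given without shRB 2.

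As a group, the zinc finger genes at the end of chromosome 19 were lower in each of the 3 shRB libraries by nearly the same amount. Relative to the shCON mean, the median log2 CPM over the 48 members that could be tested was −0.31 in shRB 1, −0.32 in shRB 2 and −0.31 in shRB 3, and between −0.01 and 0.00 in the shCON libraries. The summed level of all 53 members was 865.0, 885.8 and 891.7 CPM in shCON and 701.5, 701.2 and 713.9 CPM in shRB. The shRB libraries thus lay below the shCON libraries without overlap, at 80.1% of the control mean (705.5 ± 7.25 against 880.8 ± 14.0 CPM, SD, n = 3 each). The other 182 chromosome 19 zinc finger genes summed to 2361.6 ± 181.0 CPM in shRB and 2421.6 ± 76.8 CPM in shCON, 97.5% of the control mean. Members made up 26.7 ± 0.89% of all chromosome 19 zinc finger counts in shCON and 23.1 ± 1.26% in shRB. In bulk RNA, fewer cells that express a gene and less RNA per cell cannot be told apart.

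**Figure D1:**
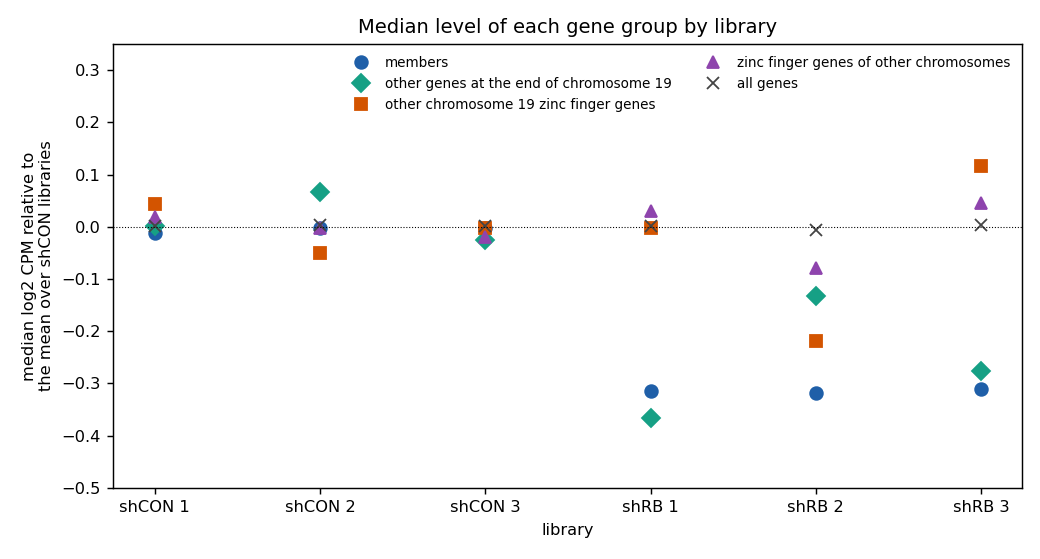
Median log2 CPM of each gene group in each library, relative to the mean over the shCON libraries (y axis, log2). Members (blue circles) sit at −0.31, −0.32 and −0.31 in shRB 1, 2 and 3, while the other chromosome 19 zinc finger genes (orange squares) spread from −0.22 in shRB 2 to 0.12 in shRB 3.

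The plot of group medians by library shows how far the reference groups varied between shRB libraries. The other chromosome 19 zinc finger genes had medians of 0.00, −0.22 and 0.12 in shRB 1, 2 and 3, and zinc finger genes of other chromosomes 0.03, −0.08 and 0.05. The other genes at the end of chromosome 19 had medians of −0.37, −0.13 and −0.28. Library shRB 2 was the lowest of the shRB libraries in both zinc finger reference groups and the highest in the other genes at the chromosome end. The members' median was the same to within 0.01 in the 3 shRB libraries, but shRB 2 shifted subsets of members in opposite directions. Members at or below their median GC content had medians of −0.35, −0.57 and −0.37 in shRB 1, 2 and 3. Those above it had −0.26, −0.11 and −0.27.

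Of the 53 members, 48 passed the filter on low counts, and 24 of these were called lower in shRB (edgeR, Benjamini-Hochberg adjusted p under 0.05 over all 11712 genes tested). Over all genes, 12.5% were called lower, 12.8% higher and 25.3% in either direction. Values of the 3 shRB libraries lay wholly below the 3 shCON libraries in 29 of the 48, where the share over all genes was 20.2%, and wholly above in 2 (ZIK1 and ZNF135), where it was 21.0%. A log2 fold change below 0 was found for 42 of the 48, and for 51.0% of all genes. The median was −0.32 (quartiles −0.47 and −0.12), against −0.01 for all genes. No member was called higher by edgeR, DESeq2 or limma-voom, and at an unadjusted edgeR p under 0.05 there was 1 higher (ZNF135) and 26 lower. Since the contrast chose the region, nothing is read from these counts against their background.

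How many members were called depended on single libraries, while the median moved little. The count of 24 fell to 11 without shCON 1, to 12 without shCON 2, to 11 without shCON 3 and to 15 without shRB 1, and DESeq2 called 14. It was 23 without shRB 2 and 17 without shRB 3. Over the same fits the median log2 fold change stayed between −0.36 and −0.30, and 41 to 43 of the 48 were below 0. The 7 members called in each of the 17 alternative fits were ZNF17, ZNF211, ZNF264, ZNF587, ZNF606, ZNF772 and ZSCAN18, named here because of those calls.

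The 12 largest falls among called members whose groups did not overlap were all of moderate size, from ZNF264 at 49.3% of control to ZNF587 at 72.0% by the fitted fold change. ZNF211 apart, whose row holds no KRAB string, these genes encode KRAB zinc finger proteins, most of them without a well established target. ZNF264 (ENST00000263095) read 7.27, 8.94 and 8.17 CPM in shCON and 5.65, 2.02 and 3.96 CPM in shRB, a log2 fold change of −1.02 ± 0.25 (SE). Library shRB 2 was the lowest and shRB 1 the highest of its shRB values, and the groups did not overlap. ZNF460 (ENST00000360338) read 4.37, 2.51 and 3.27 CPM in shCON and 2.19, 2.33 and 1.93 CPM in shRB (−0.73 ± 0.25). Its lowest shCON value, in shCON 2, lay close above its highest shRB value, at 134 counts in shCON and 66 in shRB in all. ZNF543 (ENST00000321545) read 10.9, 14.5 and 13.9 CPM in shCON and 7.10, 7.11 and 10.1 CPM in shRB (−0.66 ± 0.17). Here shCON 1 and shRB 3 were the nearest pair of libraries. ZNF606 (ENST00000341164), on the minus strand, read 22.8, 18.3 and 22.1 CPM in shCON and 14.9, 11.6 and 13.5 CPM in shRB (−0.66 ± 0.13). Its groups were well apart, with each shRB library below each shCON library.

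ZNF749 (ENST00000334181) read 6.77, 8.14 and 9.80 CPM in shCON and 5.10, 4.46 and 5.51 CPM in shRB (−0.65 ± 0.18). The shCON values spread more widely than the shRB values, and the groups did not overlap. ZNF583 (ENST00000291598), the first coding member after ZNF582, read 10.6, 9.14 and 9.31 CPM in shCON and 7.74, 4.14 and 7.25 CPM in shRB (−0.61 ± 0.19). Library shRB 2 was far below the other shRB libraries. ZNF17 (ENST00000307658), which has the most fingers of the members at 18, read 8.49, 10.3 and 10.6 CPM in shCON and 6.37, 6.15 and 6.47 CPM in shRB (−0.59 ± 0.15). Its shRB libraries were nearly equal. ZNF582 (ENST00000586929), the boundary gene, read 5.45, 5.83 and 5.07 CPM in shCON and 4.37, 2.76 and 3.67 CPM in shRB (−0.59 ± 0.19). Here too shRB 2 was the lowest library.

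ZNF211 (ENST00000535785) read 13.8, 13.2 and 13.1 CPM in shCON and 9.02, 9.02 and 9.18 CPM in shRB (−0.57 ± 0.12). This was the tightest pair of groups among the largest falls. ZFP28 (ENST00000301318) read 15.9, 13.9 and 11.1 CPM in shCON and 10.2, 8.49 and 9.95 CPM in shRB (−0.55 ± 0.15). The shCON 3 library came close to shRB 1. ZNF470 (ENST00000330619) read 19, 16.9 and 16.7 CPM in shCON and 12.8, 10.6 and 13.6 CPM in shRB (−0.51 ± 0.13), and ZNF587 (ENST00000339656) 27.1, 26.0 and 28.1 CPM in shCON and 18.0, 17.8 and 22.4 CPM in shRB (−0.47 ± 0.12). In both genes shRB 3 was the highest shRB library and still lay below each shCON library.

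**Figure D2:**
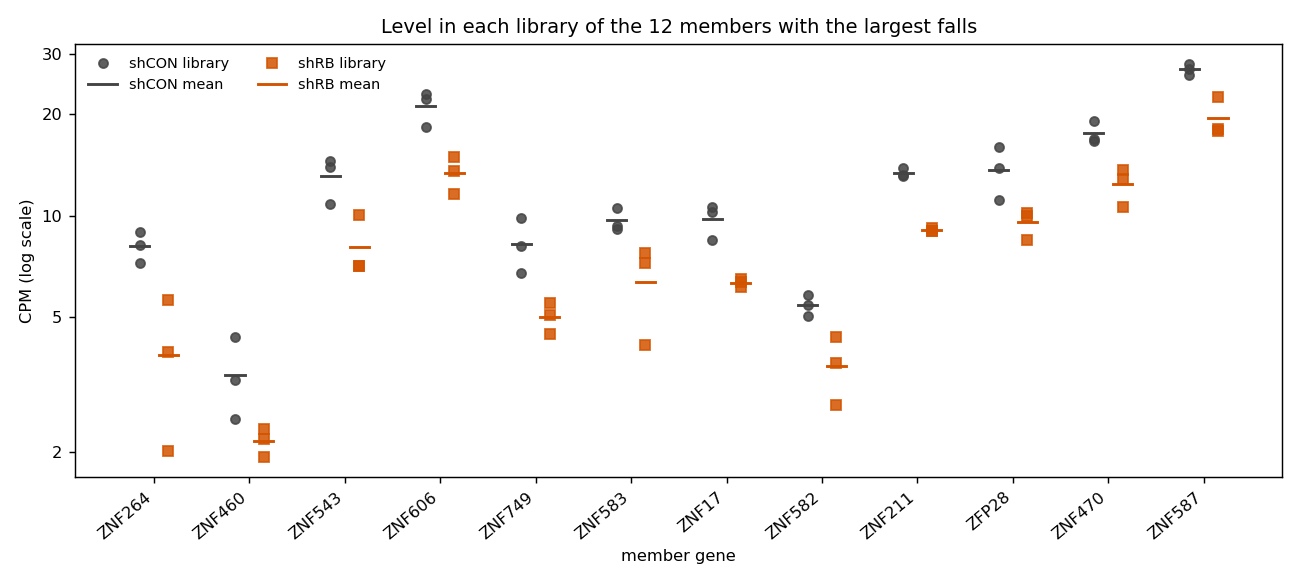
CPM (y axis, log scale) in each library of the 12 members with the largest falls, ordered by fold change, with shCON libraries as dark circles, shRB libraries as orange squares and group means as bars. In each gene the 3 squares lie below the 3 circles, and the shRB 2 value of ZNF264 is 2.02 CPM.

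The plot of the 12 genes by library shows the groups apart in each, but not each call held when a library was left out. The calls of ZNF264, ZNF606, ZNF17, ZNF211 and ZNF587 held in every such fit. ZFP28 and ZNF470 lost theirs without shCON 1 (log2 fold changes −0.40 and −0.44). ZNF749 lost its call without shCON 2 or shCON 3 (−0.63 and −0.54), and ZNF543 without shCON 2, shCON 3 or shRB 1 (−0.56, −0.61 and −0.57). ZNF583 lost its call without shCON 1, shCON 2, shCON 3 or shRB 2 (−0.52, −0.65, −0.62 and −0.39), and DESeq2 did not call it. ZNF460 lost its call without shCON 1, shCON 3, shRB 1 or shRB 3 (−0.39, −0.75, −0.74 and −0.66), and DESeq2 and limma-voom did not call it either. ZNF582 was called in neither the DESeq2 fit nor the fits without shCON 1, shCON 2, shCON 3, shRB 2 or shRB 3 (−0.60, −0.55, −0.62, −0.44 and −0.60). Without shRB 2 the log2 fold change of ZNF583 was thus −0.39 in place of −0.61.

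Levels in control cells, which form 1 side of the difference that chose the region, spanned a wide range. Per kilobase of transcript, the 48 tested members ran from 0.354 to 34.3 CPM per kb in shCON (median 3.66), and the 160 tested other chromosome 19 zinc finger genes had a median of 3.12 CPM per kb. The non-coding ZNF667-AS1 was the highest at 34.3 ± 3.08 CPM per kb (SD, n = 3), followed by ZSCAN18 at 22.8 ± 0.25, ZBTB45 at 19.4 ± 0.87, ZNF274 at 15.8 ± 0.36 and ZNF544 at 15.8 ± 1.11 CPM per kb. The last 2 did not differ beyond their spread. The lowest were ZNF264 at 0.668 ± 0.069 and ZNF135 at 0.354 ± 0.096 CPM per kb. The coefficient of variation of CPM over the 3 libraries of a group had a median of 7.38% in shCON and 10.4% in shRB.

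Among the 5 members with the highest CPM, 3 were called lower. ZNF772 (ENST00000343280), a KRAB gene, read 62.1, 63.5 and 67.3 CPM in shCON and 50.8, 40.4 and 48.1 CPM in shRB, a log2 fold change of −0.46 ± 0.10 (SE). ZSCAN18 (ENST00000240727), a SCAN gene, read 62.6, 64.0 and 63.2 CPM in shCON and 44.6, 49.7 and 44.3 CPM in shRB (−0.46 ± 0.09). Both fell by similar amounts with no overlap, shRB 2 being the lowest shRB library in ZNF772 and the highest in ZSCAN18. ZNF667-AS1 (ENST00000585445) read 48.9, 57.6 and 50.2 CPM in shCON and 40.8, 46.8 and 38.8 CPM in shRB (−0.31 ± 0.10), and its highest shRB library came close to its lowest shCON library. Its call was lost with DESeq2 (−0.30), with a GC offset (−0.25), and without shCON 1, shCON 2, shCON 3, shRB 1 or shRB 3 (−0.36, −0.23, −0.33, −0.29 and −0.25). ZNF544 (ENST00000269829), a KRAB gene, read 51.5, 57.2 and 59.0 CPM in shCON and 49.1, 50.4 and 53.5 CPM in shRB (−0.12 ± 0.09), with overlapping groups. ZBTB45 (ENST00000594051), the one BTB gene, read 47.1, 51.5 and 49.3 CPM in shCON and 45.0, 45.1 and 45.7 CPM in shRB (−0.12 ± 0.09). Its shRB libraries all lay below shCON by a small margin, and neither gene passed.

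The other 9 called members were ZNF548, ZNF586, ZNF776, ZNF549, ZNF419, ZNF329, ZNF773, ZNF584 and ZNF274, with log2 fold changes from −0.46 (ZNF548) to −0.32 (ZNF274). By these fitted fold changes the shRB level was 72.5% to 80.3% of control, and in each the groups did not overlap. Among them ZNF274 is the best studied: it binds the 3' ends of zinc finger genes and brings SETDB1 to them. It read 38.4, 38.0 and 39.7 CPM in shCON and 32.5, 27.3 and 33.1 CPM in shRB (−0.32 ± 0.10). Its shCON libraries were nearly equal, and shRB 2 was the lowest. Each of these 9 calls was lost in at least 1 of the 17 alternative fits.

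Of the 24 tested members that did not pass, 18 had values below 0 and 6 above. In ZNF667, ZNF304, ZNF551, ZNF446 and ZBTB45 each shRB library still lay below each shCON library, with log2 fold changes from −0.33 (ZNF304) to −0.12 (ZBTB45). The 6 values above 0 were those of ZNF135, ZNF582-AS1, ZNF324B, ZIK1, ZNF671 and ZNF547. ZNF135 (ENST00000401053), the least abundant tested member, read 1.33, 1.41 and 0.817 CPM in shCON and 1.73, 2.55 and 2.13 CPM in shRB, a log2 fold change of 0.75 ± 0.28 (SE) on 46 and 65 counts. Its shRB libraries all lay above shCON, it was called higher only with a GC offset, and its exons overlap those of ZSCAN18 on the other strand. ZIK1 (ENST00000597850) read 15.7, 15.3 and 13.9 CPM in shCON and 17.0, 17.3 and 16.4 CPM in shRB (0.16 ± 0.11). The groups of ZIK1 did not overlap either, by a narrow margin. ZNF671 and ZNF547, at 0.05 ± 0.14 and 0.03 ± 0.15, had overlapping groups.

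The 5 members left out by the filter on low counts were near or at 0 in both groups. ZSCAN1 had no count in any library, and ZNF835 had 1 count in shCON and 0 in shRB. ZSCAN4, a gene of the early embryo, had 4 counts in shCON and 1 in shRB, ZNF460-AS1 had 10 and 10, and ZNF154, which is often silenced by promoter methylation in tumours, had 16 and 11. These sums over 3 libraries were too low to compare the groups.

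In chromosomal order, the largest shifts lay at the ZNF582 side of the region and smaller ones towards the chromosome end. In 4 successive blocks of 12 tested members, the median log2 fold change was −0.53 from ZNF582 to ZNF547, −0.43 from ZNF548 to ZNF211, −0.21 from ZNF551 to ZSCAN18 and −0.16 from ZNF329 to ZBTB45. The blocks held 8, 8, 5 and 3 called members. Median GC content of the transcripts rose along the same blocks (43.8%, 45.5%, 45.6% and 57.6%). Across the 48 tested members, which share the same 6 libraries, the log2 fold change had a Spearman's rho of 0.42 with order along the chromosome and 0.43 with GC content. Without shRB 2, the library that followed GC content most strongly, the block medians were −0.40, −0.38, −0.21 and −0.23. With a GC offset they were −0.47, −0.37, −0.15 and −0.18, and without shCON 1 −0.40, −0.45, −0.33 and −0.21. The first 2 blocks stayed lower than the last 2 in each of these settings. The separate parts of GC content and position were not tested further.

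**Figure D3:**
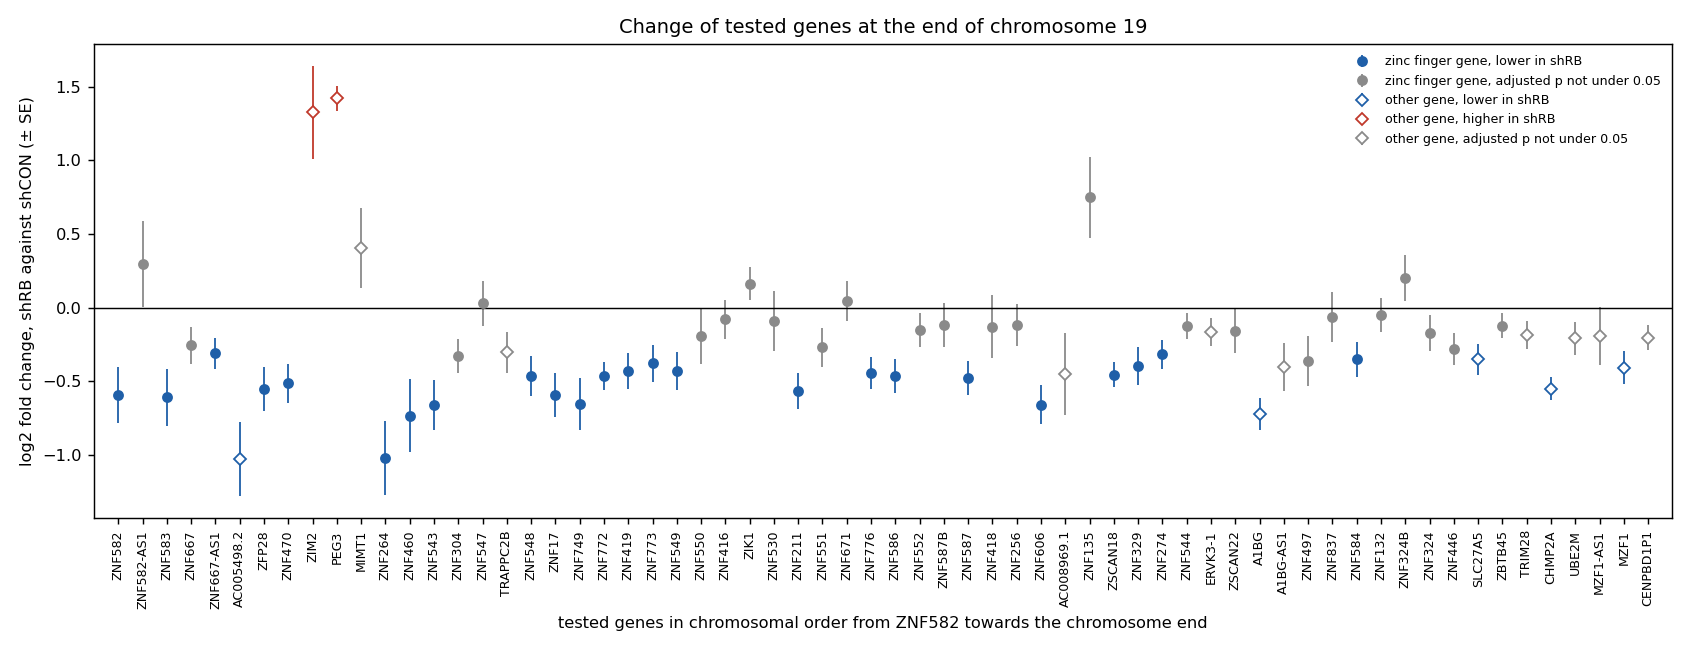
Log2 fold change of shRB against shCON (y axis, ± SE) for tested genes from ZNF582 to the end of chromosome 19, in chromosomal order. Filled circles are zinc finger members (blue called lower, grey not passed) and open diamonds other genes. Blue circles are densest on the left, and ZIM2 and PEG3 stand above 1.

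In the plot in chromosomal order, ZNF550, ZNF416, ZIK1 and ZNF530 did not pass and lie between the called ZNF549 and ZNF211. Split at the median GC content of 46.1%, the 24 members at or below it had a median log2 fold change of −0.45 with 15 called lower, and the 24 above it −0.16 with 9 called lower. By library, the first set had medians of −0.35, −0.57 and −0.37 in shRB 1, 2 and 3, and the second −0.26, −0.11 and −0.27. The gap between the sets was thus widest in shRB 2. With that library left out the medians of the 2 sets were −0.38 and −0.23, and both stayed below 0 in every fit run.

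The boundary at ZNF582 was set by the rule, and the genes beside it show how sharp it was. Of the 3 tested zinc finger genes just before it, ZNF444 read 55.4, 54.7 and 53.1 CPM in shCON and 41.5, 51.1 and 42.7 CPM in shRB (log2 fold change −0.27). The SCAN gene ZSCAN5A read 2.70, 3.42 and 5.72 CPM in shCON and 4.55, 4.14 and 6.18 CPM in shRB (0.49), and the pseudogene ZNF542P 52.2, 47.8 and 54.6 CPM in shCON and 39.8, 31.8 and 37.3 CPM in shRB (−0.50). ZNF444 and ZNF542P thus lay lower in each shRB library, although outside the rule, and ZSCAN5A overlapped. ZNF542P was called lower, and ZNF444 and ZSCAN5A did not pass. Some alternative edgeR fits called ZNF444 lower, such as without shRB 2 (−0.37, adjusted p = 0.00061) and with a GC offset (−0.27, adjusted p = 0.003). ZSCAN5A was called higher without shCON 3 (0.75, edgeR adjusted p = 0.049) or shRB 2 (0.62, edgeR adjusted p = 0.027). Just inside, the 3 members after ZNF582 were ZNF582-AS1 at 1.72, 1.41 and 2.61 CPM in shCON and 1.64, 2.02 and 3.00 CPM in shRB (0.30), ZNF583 (above, −0.61) and ZNF667. ZNF667 read 14.2, 13.5 and 13.1 CPM in shCON and 11.4, 10.3 and 12.7 CPM in shRB (−0.26). Both sides of the boundary thus held genes that lay lower in each shRB library and a gene that did not.

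**Figure D4:**
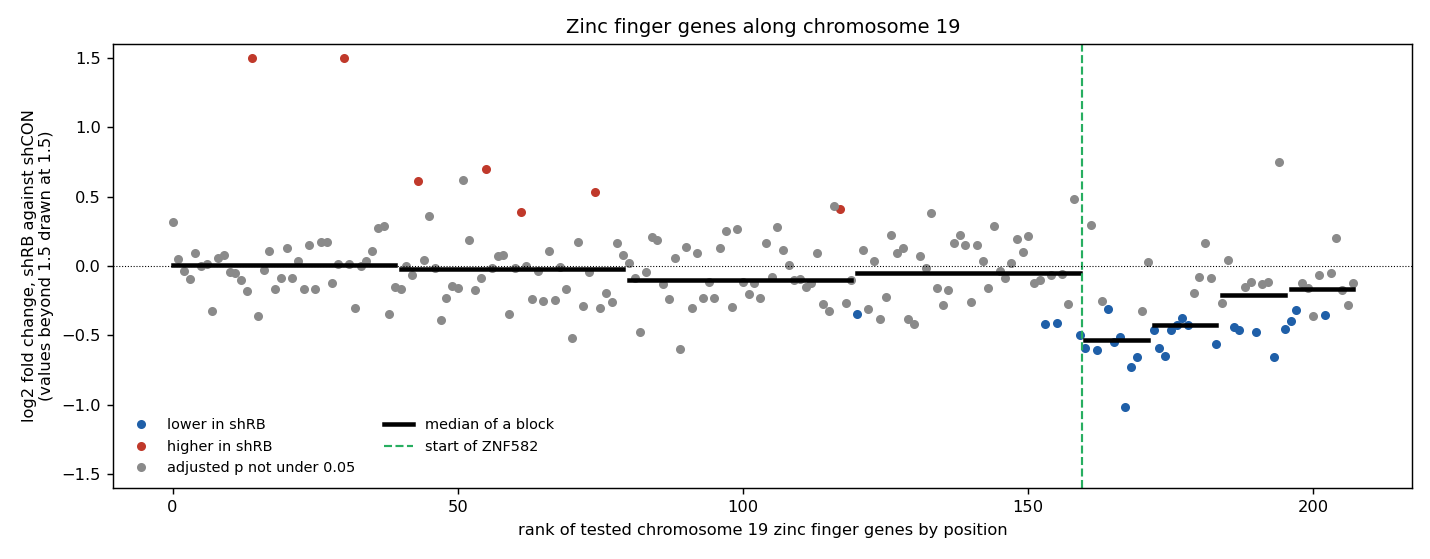
Log2 fold change (y axis, values beyond 1.5 drawn at 1.5) of the 208 tested zinc finger genes of chromosome 19, ranked by position (x axis). Black bars are medians of blocks of 40 reference genes or 12 members, and the dashed line is the start of ZNF582: the 4 bars to its right lie at −0.53, −0.43, −0.21 and −0.16, and those to its left between −0.10 and 0.01.

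The plot along the whole chromosome sets the members beside the 160 tested zinc finger genes elsewhere on chromosome 19, of which 4 were called lower and 7 higher, with a median of −0.04. In 4 blocks of 40 from ZNF555 onward their medians were 0.01, −0.03, −0.10 and −0.05. Of the last 8 before ZNF582, 3 were called lower (ZNF524 at −0.42, ZNF580 at −0.41 and ZNF542P at −0.50), and the median of the 8 was −0.19. Of the other 152, 1 was called lower (ZNF613, −0.35). The reference median of −0.04 lay above 0 with a GC offset (0.04), with that offset and the replicate number as a block (0.025), without shCON 1 (0.01) and without shRB 2 (0.07), so no direction is given for it. Its 7 higher calls became 2 without shCON 1, shCON 2 or shRB 3, 4 without shCON 3 or shRB 1, 15 without shRB 2 and 17 with a GC offset. Its 4 lower calls became 2 without shCON 1, shRB 1 or shRB 3, 1 without shCON 3 and 7 without shRB 2.

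**Figure D5:**
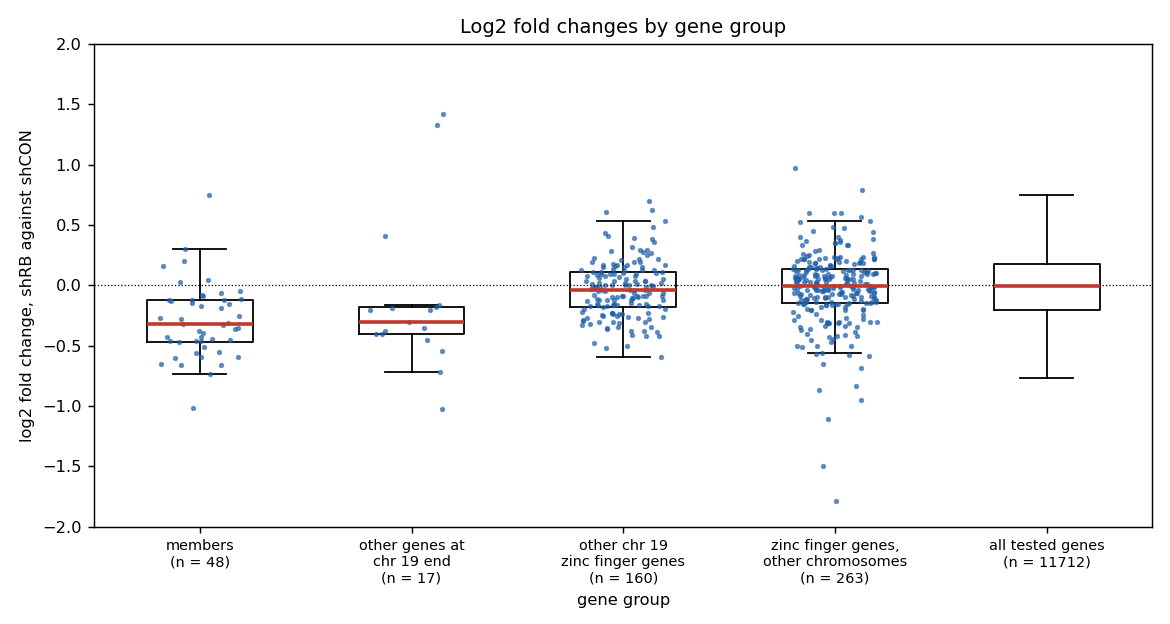
Log2 fold changes (y axis) of tested genes in 5 groups: points are genes (not drawn for all genes), boxes span the quartiles with the median in red, and whiskers reach 1.5 times the box. The members' box (−0.47 to −0.12) lies below 0, and outside the axis range are 2 other chromosome 19 zinc finger genes, 1 of another chromosome and 100 of all genes.

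The plot of distributions shows the spread of members among themselves. Their standard deviation over 48 values was 0.30, against 0.40 over the 160 reference genes and 0.34 over 263 zinc finger genes of other chromosomes, whose median was −0.01 with 21 called lower and 17 higher. Their quartiles spanned −0.47 to −0.12, and those of the reference genes −0.18 to 0.11. Members of higher level were more alike: the 24 above the median level of 13.8 CPM in shCON had a standard deviation of 0.18 around a median of −0.37, and the 24 at or below it 0.39 around −0.16. Counting error is larger in the second set.

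Other genes between ZNF582 and the chromosome end were measured for comparison, since they share the location and fall outside the symbol rule. A few of them are zinc finger genes too. Of 24 such rows, 17 were tested, 6 were called lower and 2 higher, and the median was −0.30. A1BG, a plasma glycoprotein gene, read 21.4, 19.9 and 21.2 CPM in shCON and 12.3, 12.8 and 12.9 CPM in shRB (log2 fold change −0.72 ± 0.11, SE). CHMP2A, a subunit of the ESCRT-III membrane remodelling complex, read 316.1, 328.2 and 326.1 CPM in shCON and 219.9, 244.9 and 198.9 CPM in shRB (−0.55 ± 0.08). Both encode no zinc finger, and in both the groups did not overlap. Also called lower were the lincRNA AC005498.2 (−1.03), the bile acid gene SLC27A5 (−0.35) and the zinc finger gene MZF1 (−0.41), named because of their calls. The 6 lower calls became 3 without shCON 1, 4 without shCON 2 or shRB 1, and 10 without shRB 2 or with a GC offset.

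The 2 genes called higher there were PEG3 and ZIM2, zinc finger genes of an imprinted locus whose symbols fall outside the rule. PEG3 read 226.8, 222.5 and 222.4 CPM in shCON and 634.7, 527.3 and 635.5 CPM in shRB (1.42 ± 0.08), and each shRB library stood above 2 times the shCON mean. ZIM2 read 3.73, 4.52 and 5.55 CPM in shCON and 16.8, 5.41 and 10.2 CPM in shRB (1.33 ± 0.32), so its groups overlapped through shRB 2, and its exons overlap those of PEG3 on the same strand. The 7 tested members before PEG3 had a median of −0.51 with 5 called lower, and the 41 after it −0.32 with 19 called lower, so lower values were found on both sides. With PEG3, ZIM2, MZF1, ZIM3 and USP29 set aside, 14 other genes were tested, 5 of them called lower and 0 higher (edgeR), with a median of −0.33. The 0 follows from setting aside PEG3 and ZIM2, the only genes called higher there. Of the 640 tested chromosome 19 genes outside the region whose symbols lack the rule's prefixes, 53 were called lower and 77 higher, and the median was 0.05. Zinc finger genes with other symbols were not removed from them.

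By domain, the 36 tested members with a KRAB string had a median log2 fold change of −0.34, with 19 called lower, and the 10 tested coding members without one −0.32, with 4 called lower. The 3 tested ZSCAN and ZBTB members were ZSCAN18 (−0.46), ZSCAN22 (−0.16) and ZBTB45 (−0.12). By number of fingers, the 21 tested members with 12 or more had a median of −0.40 and the 25 with fewer −0.28, with 11 and 12 called lower. Across 46 coding members the rho between finger number and log2 fold change was −0.13. Members with and without the KRAB string thus had similar medians, and differences between these subsets were not tested. The string was sought in the translated transcript of each row only, so a member without it may still encode the domain. The ZNF211 row, for example, translated to 45 residues. These medians therefore do not compare KRAB genes with genes that lack the domain. By strand, 19 of 32 tested plus-strand members and 5 of 16 minus-strand members were called lower, with medians of −0.36 and −0.17.

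Close copies and overlapping genes bear on how far each value belongs to 1 gene, because no source used here gives the counting options or says whether strand was used. Of all 50-base windows, ZNF587 shared 38.0% with other genes, chiefly ZNF814, ZNF417 and AC010522.1. Its exons overlap those of ZNF814 on the other strand and of AC010522.1 on the same strand, so this share mixes overlap and similarity. ZNF419 and ZNF773 shared 27.6% and 19.8%, chiefly with each other, and both overlap AC003005.1 on the same strand. ZNF419 and ZNF773 had log2 fold changes of −0.43 and −0.38, and the neighbours ZNF324 and ZNF324B, which share 17.3% of their windows, −0.17 and 0.20. ZNF17 shared 18.4%, ZNF552 18.4% and ZNF587B 20.5%. The 42.9% shared by ZSCAN18 came mainly from exons that overlap ZNF135, and the 34.1% of ZNF446 and 33.7% of ZNF497 from overlaps with SLC27A5 and A1BG-AS1. The values of these genes are therefore uncertain. Members with under 5% shared windows had a median of −0.31 (26 tested, 13 called lower), and those with 5% or more −0.37 (22 tested, 11 called lower). The 18 tested members with no overlapping exon had a median of −0.24 with 9 called lower, and the 30 with an overlap −0.35 with 15 called lower.

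Some members start within 1000 bases of a gene on the other strand, by the annotated gene ends, where they may share a promoter. Such pairs did not always move alike. ZNF582 and ZNF582-AS1 start 111 bases apart, and their log2 fold changes were −0.59 ± 0.19 and 0.30 ± 0.29 (SE), the second on 65 counts in shCON and 68 in shRB. ZNF667 and ZNF667-AS1, 815 bases apart, had −0.26 and −0.31, and they overlap on opposite strands. ZNF416 and ZIK1, 471 bases apart by gene ends, had −0.08 and 0.16, and neither passed. They overlap on opposite strands, and their RefSeq promoter windows lie further apart (chr19:57578862-57579161 and chr19:57583895-57584194). ZFP28 and the lincRNA AC005498.2, 373 bases apart, had −0.55 and −1.03, both called lower. ZNF460-AS1, 283 bases from ZNF460, was too low to test.

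Genes of the repression machinery that KRAB zinc finger proteins work through were followed together with other repressors and partners. The list held 46 symbols, 43 of them with a row and 42 tested, and was chosen with earlier results of these data known. It includes genes outside the KRAB machinery, such as CTCF, BCL6 and NCOR1, and names FAM208A also as TASOR. Of the 42 tested, 10 (23.8%) were called higher in shRB and 2 (4.76%) lower, where the shares over all genes were 12.8% and 12.5%. The median log2 fold change of the list was 0.08. TRIM28, the KRAB corepressor, which itself lies at the end of chromosome 19, read 591.0, 643.6 and 597.0 CPM in shCON and 473.0, 626.5 and 515.5 CPM in shRB (−0.18 ± 0.10, SE; edgeR, Benjamini-Hochberg adjusted p = 0.18). Library shRB 2 overlapped the controls, and without it TRIM28 was called lower (−0.30, adjusted p = 0.00017). SETDB1, the H3K9 methyltransferase that TRIM28 brings in, read 43.4, 43.8 and 41.2 CPM in shCON and 48.1, 50.1 and 51.4 CPM in shRB (0.22 ± 0.09, edgeR adjusted p = 0.080). Its groups did not overlap, and it was called higher without shRB 2 (0.22, adjusted p = 0.044). With a GC offset both genes were called, at −0.19 and 0.23.

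The heterochromatin genes CBX5, SUV39H1 and SUV39H2 were called higher and are named because of those calls. CBX1 was also called higher (0.24 ± 0.07, SE). Others of the list did not pass, such as CBX3 (0.19 ± 0.09), EHMT1 (0.04 ± 0.07), EHMT2 (0.17 ± 0.10) and ATRX (−0.45 ± 0.20). CBX5, which encodes HP1 alpha, read 248.3, 261.1 and 252.4 CPM in shCON and 323.7, 357.1 and 360.4 CPM in shRB (0.45 ± 0.07, edgeR adjusted p = 0.0005). The H3K9 methyltransferase genes SUV39H1 and SUV39H2 had shCON means of 12.4 ± 0.52 and 19.2 ± 1.51 CPM, and shRB means of 19.2 ± 2.95 and 26.2 ± 2.14 CPM (SD, n = 3; log2 fold changes 0.63 ± 0.13 and 0.46 ± 0.11, SE; edgeR adjusted p = 0.004 and 0.008). In both genes each shRB library lay above each shCON library, and the call of SUV39H2 was lost without shCON 1 (0.44, adjusted p = 0.05). RBBP7, a histone-binding subunit of deacetylase complexes, read 177.1, 172.5 and 174.2 CPM in shCON and 239.4, 241.1 and 246.1 CPM in shRB (0.47 ± 0.07, edgeR adjusted p = 0.0002).

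FAM208A, also called TASOR, the scaffold of the HUSH silencing complex, fell from 30.9, 30.1 and 29.9 CPM in shCON to 16.9, 14.1 and 18.2 CPM in shRB (−0.88 ± 0.11, edgeR adjusted p = 8.8e-05). By the fitted fold change its level was 54.2% of control. KDM4A, a histone demethylase, went from a mean of 94.3 ± 0.39 CPM to 77.5 ± 2.93 CPM in shRB (SD, n = 3; −0.28 ± 0.07, edgeR adjusted p = 0.013), a call lost without shCON 1, shCON 3 or shRB 1 (−0.28, −0.27 and −0.25). The other HUSH subunits MPHOSPH8 and PPHLN1 did not pass, at −0.20 ± 0.14 and 0.06 ± 0.09. The list's 10 higher calls became 3 without shCON 1, 4 without shCON 3, 5 without shRB 3 and 17 with a GC offset, and its 2 lower calls became 1 without shCON 1 or shCON 3 and 4 with a GC offset. Whether these genes and the zinc finger genes moved for a common reason was not tested.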

How the data were processed

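RNA was measured by sequencing in 6 LNCaP libraries, 3 shCON and 3 shRB. The authors deposited raw read counts per Ensembl transcript ID, and the submitters' processing notes name STAR, HOMER, edgeR and the build hg19. The sources used here do not give the counting options, the annotation or whether strand was used. IDs were matched to GENCODE release 29 (22182 of 22279 rows), and the 97 unmatched rows held 0.377% of the counts. That release describes another build and was used for names, order, exon overlap, length and GC content. Finger and KRAB strings were sought in its translated transcripts. Shared windows and the distances between gene starts were also taken from it. The members and lists were chosen with earlier results of these data known.

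Rows passing filterByExpr (minimum count 10, total at least 15) were scaled by TMM and compared with edgeR 4.0.16 (R 4.3.3; glmQLFit, glmQLFTest, group as the only term), with Benjamini-Hochberg adjustment over all 11712 genes at 0.05. CPM is the count scaled to the TMM-adjusted total of tested genes. Library medians used log2(CPM + 0.05). Alternatives were DESeq2 1.42.0, limma-voom (limma 3.58.1), other normalizations and filters, the replicate number as a block, a loess GC offset (span 0.4), each library left out in turn, and other member sets. Named genes were the boundary gene, the 12 largest falls and up to 6 rises among called members without overlap, the 5 of highest CPM, the 3 neighbours on each side of the boundary, up to 6 called corepressors with TRIM28 and SETDB1, and up to 4 called neighbours with PEG3; others were named after their values were seen. Some genes the rule takes are not reported here. On simulated counts for this comparison (11597 genes tested) the procedure recovered 22.4% of genes changed 1.25-fold, 74.0% at 1.5-fold and 95.9% at 2-fold, with 5 of 149 calls false. Far fewer genes were changed in the simulation than were called in the data, and its libraries had no deviations tied to GC content. These rates may therefore not hold for the real libraries. Counts of replicates differed beyond sampling noise in each pair (chi-square over its degrees of freedom 2.17 to 10.9), so no library was treated as a copy of another.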

Additional observations from a re-analysis of the deposited data

How the results depend on the processing

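Of 64 single-gene log2 fold changes, none changed direction while called in any of 17 alternative fits, and the summed level of the members stayed between 78.8% and 81.0% of control. The count of members called lower (24) was 14 with DESeq2, 7 at an adjusted p under 0.01, 9 among members with no exon overlap and 11 to 23 with a library left out. Members called higher (0) became 1 with a GC offset, 1 with the offset and the replicate block, and 2 over all tested genes from ZNF582 on; with a library left out it stayed at 0. The members' median log2 fold change (−0.321) was −0.315 with DESeq2, −0.346 with upper quartile scaling, −0.337 with library totals, −0.286 with a GC offset, −0.284 with the offset and block, −0.237 with no exon overlap and −0.358 to −0.295 with a library left out. Other chromosome 19 zinc finger genes called lower (4) became 7 with limma-voom, 8 with upper quartile scaling, 8 with no filter, 13 with the replicate block, 7 with a GC offset, 7 with offset and block, 1 at 0.01 and 1 to 7 with a library left out; those higher (7) became 3 with DESeq2, 17 with a GC offset, 17 with offset and block, 2 at 0.01 and 2 to 15 with a library left out, and their median ran from −0.101 to 0.070.

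All genes called lower (1459) became 2294 with the replicate block, 793 at 0.01 and 912 to 1956 with a library left out, and those higher (1499) 2707 with a GC offset, 2868 with offset and block, 787 at 0.01 and 863 to 2074. For the corepressor list, lower calls (2) became 6 with the block, 4 with a GC offset, 4 with both, 1 at 0.01 and 1 to 3 with a library left out; higher calls (10) became 16, 17, 18, 4 and 3 to 13 in that order; its median (0.075) was 0.050 with upper quartile scaling, 0.057 with library totals, 0.105 with a GC offset, 0.107 with both and 0.072 to 0.099 with a library left out. Other genes at the chromosome end called lower (6) became 10 with the block, 10 with a GC offset, 10 with both and 3 to 10 with a library left out, their higher calls stayed at 2 and their median ran from −0.382 to −0.230. Zinc finger genes of other chromosomes called lower (21) became 36 with the block, 10 at 0.01 and 10 to 21 with a library left out; those higher (17) became 34 with a GC offset, 34 with both, 9 at 0.01 and 9 to 27, and their median ran from −0.027 to 0.034. A stricter threshold lowers the counts by construction; otherwise the cause was not tested.

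Correlations between libraries do not settle whether the replicate numbers pair the samples. Same-numbered shCON and shRB libraries had correlated deviations of 0.235, 0.352 and 0.000. Among the other pairs, shCON 1 and shRB 3 had 0.273, and the rest ran from −0.37 (shCON 1 and shRB 2) to 0.026 (shCON 3 and shRB 1). With the replicate block, 27 members were called lower, the 24 and ZNF304, ZNF497 and ZNF446. Depth limits the members with few counts, such as ZNF135.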
